A study of Drosophila melanogaster with 13 samples.

Results

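The nuclear receptor and ecdysone-linked genes described here are Eip75B, Eip74EF, Eip78C, EcR, usp, Hr46, Hr39, ftz-f1, svp and ERR. Their CREB/CRTC regions are those to which the authors' table gives the symbol of one of these genes. The 10 genes were chosen from counts of such regions, so their numbers and scores are descriptions and no test was made on them. Of 4995 regions assigned to 2833 genes, 57 belonged to 9 of the 10 genes, and ERR had none. Among all RefSeq protein-coding genes, 19.4% had a region. With genes chosen by such counts, the 9 of 10 is not read against that share.

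Ecdysone is the steroid hormone that times moulting and metamorphosis in insects, and it also acts in the adult brain, where its signalling has been linked to long-term memory (LTM) in flies. Its receptor is a heterodimer of EcR and Usp, both of the nuclear receptor family, which bind DNA through a zinc-finger domain and change transcription of target genes on binding a ligand. The receptor switches on a first set of genes, among them Eip74EF and Eip75B, whose products act in turn on later genes such as Hr46 and ftz-f1. CREB is a DNA-binding transcription factor that the study found to be needed for both formation and early maintenance of LTM. CRTC is a coactivator that joins it in the nucleus, and the study found it needed for early maintenance but not for formation.

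CREB and CRTC were immunoprecipitated, with antibodies that the labels call lab made and that a company raised for the study, from nuclei of the mushroom bodies (MBs), the olfactory memory centre of the fly brain. All flies were of strain CS10 as the labels give it, w(CS10) in the study's methods, and carried a FLAG-tagged KASH protein of the nuclear envelope, driven in the MBs by MBp-LexA, which labels the α′/β′ lobe only weakly. The ChIP samples fall into CREB naive, CREB spaced, CRTC naive and CRTC spaced, with 3 libraries each, and there was 1 library of input DNA from naive flies. Naive flies were untrained, and spaced flies were taken 1 day after repeated pairings of an odour with electric shocks separated by rests. Each library pooled the heads of many flies, whose age is not given in the labels. There is a single site list for each protein, of peaks called in at least 2 of 3 replicates, and the sources used here do not state whether these were naive libraries, spaced libraries or both. No value per library was thus at hand, no replicate error can be given, and naive and spaced flies are not compared here. The depth behind a site is unknown.

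A region is a CRTC-binding site with a CREB-binding site at most 200 bp away, edge to edge. The authors gave each site a score over input DNA, which ranks sites within a list but has no unit, and a false discovery rate. The CRTC list held 5990 sites with a median score of 4.21, and the CREB list held 7243 sites with a median score of 3.67. Positions are in the dm3 build, as deposited. No sequence of these regions is shown, because no dm3 genome was used here.

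The regions were unevenly spread over the 10 genes. Eip75B had 15, Eip74EF and ftz-f1 had 10 each, EcR had 8 and Hr46 had 6. Eip78C, usp, Hr39 and svp had 2 each. In the whole table the median gene had 1 region, and 9 genes (0.318% of those named) had at least 10, of which 3 were Eip75B, Eip74EF and ftz-f1. These counts were not adjusted for the length of a gene.

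**Figure D1:**
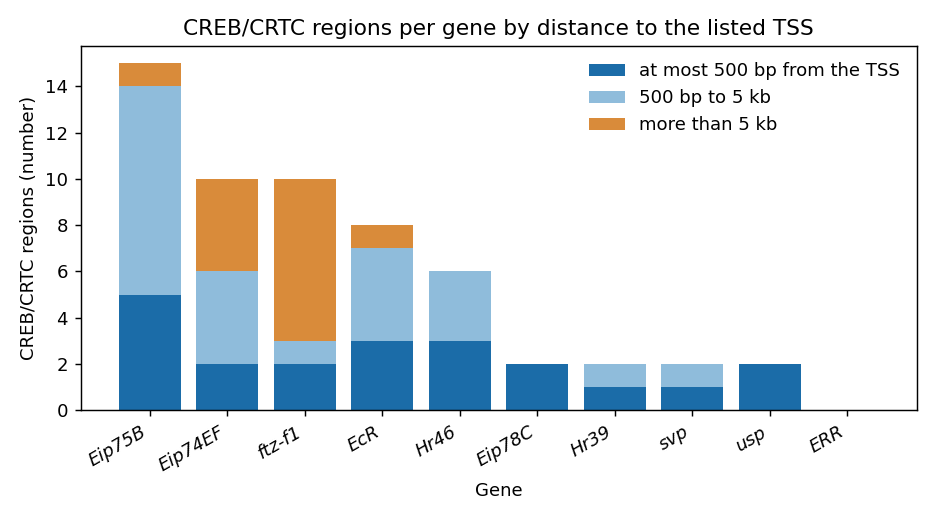
Number of CREB/CRTC regions (vertical axis) for each of the 10 genes (horizontal axis), with bars divided by the distance to the transcription start site (TSS) listed by the authors. Eip75B had 15 regions and ERR had 0, and 7 of the 10 regions of ftz-f1 lay more than 5 kb from the TSS.

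The regions of these genes often lay away from a TSS. At most 500 bp from the listed TSS were 21 of the 57 regions (36.8%), against 63.8% of all regions. A TSS was covered by 6 of the 57 (10.5%), against 21% of all regions. More than 5 kb away were 13 (22.8%), against 8.43% of all regions, and 7 of these 13 belonged to ftz-f1 and 4 to Eip74EF. Each of the 9 bound genes nonetheless had at least 1 region within 500 bp. Low counts near a TSS were not particular to these genes. Of the other genes with at least 10 regions, Mnt had 4 of 17 within 500 bp and tlk 5 of 16. CHES-1-like had 4 of 14, Pdp1 6 of 13, bun 5 of 11 and tara 2 of 11.

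By definition a region has a CREB-binding site at most 200 bp from its CRTC-binding site, and the nearest was taken. Closeness as such is therefore no result, and the values are given beside those of all regions. A CREB-binding site shared bases with the CRTC-binding site at 54 of the 57 regions (94.7%), against 90.4% of all regions. The median distance between the midpoints of the paired sites was 16.5 bp, and it was 22 bp over all regions. The other 3 regions had gaps of 82 bp at EcR, 34 bp at Eip75B and 7 bp at usp, where the definition allows up to 200 bp. Beyond that limit, the next CRTC-binding site in these loci lay 579 bp from a CREB-binding site, at EcR.

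Scores ranged widely among the 57 regions. The CRTC score was 1.67 at the lowest, 6.10 at the median and 41.7 at the highest, with a median of 4.66 over all regions. The CREB score of the nearest site was 1.64 at the lowest, 6.29 at the median and 43.9 at the highest, with a median of 4.61 over all regions. Both medians were above those of the whole table. In the highest 10% of the CRTC list were 8 of the 57 regions (14%), against 11.8% of all regions, and in the highest 10% of the CREB list were 8 (14%), against 14.3%. So the share of very high scores was near that of the whole table.

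**Figure D2:**
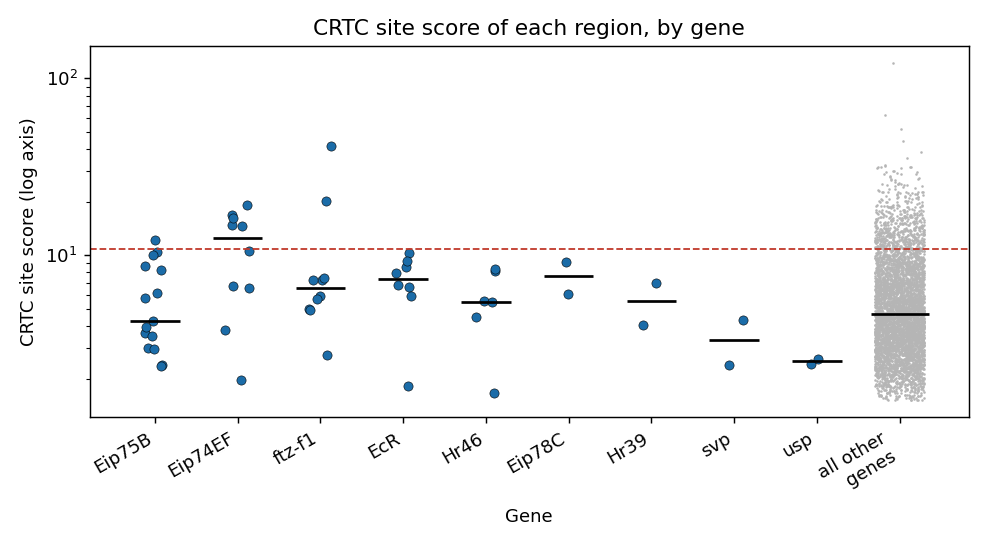
CRTC site score (vertical axis, logarithmic) of each region, by gene, with the regions of all other genes at the right. Black lines are medians and the dashed line marks the 90th percentile of the CRTC list, 10.9. Eip74EF has 5 regions above that line, ftz-f1 has 2 and Eip75B has 1.

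At the same regions, CREB and CRTC scores went together. Over the 57 regions, Pearson's r of the log2 scores was 0.93 and Spearman's rho 0.93. Over all 4995 regions they were 0.84 and 0.82. These are descriptions across regions that share the input library and the peak calling, and they say nothing of differences between flies.

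**Figure D3:**
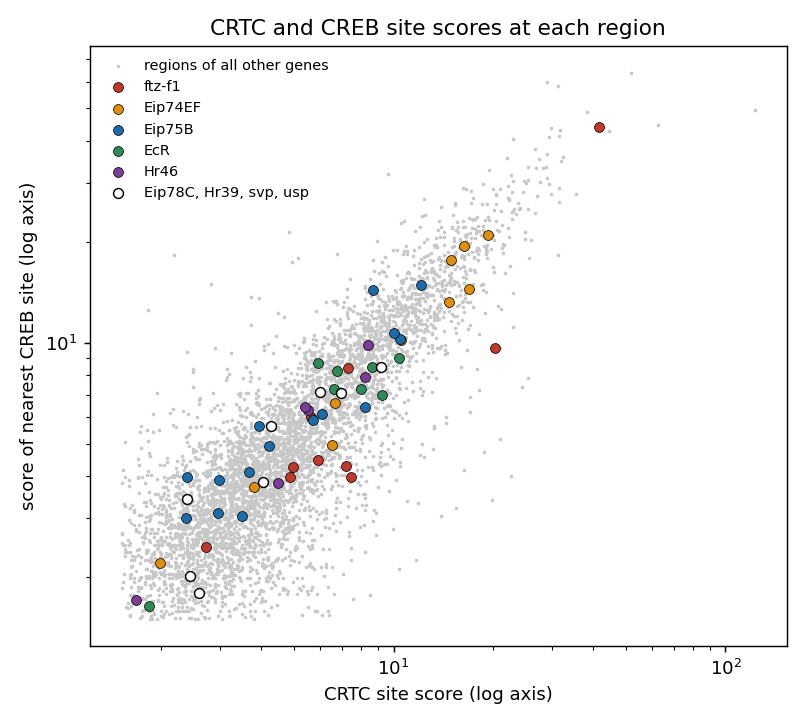
Score of the nearest CREB site (vertical axis) against the CRTC score (horizontal axis) for every region, both axes logarithmic. Grey points are regions of all other genes. A region of ftz-f1 stands near the upper right corner at 41.7 and 43.9, and another, at 20.2 for CRTC and 9.67 for CREB, lies below the main band.

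Of the genes for the subunits of the ecdysone receptor, EcR had more CREB/CRTC regions than usp. The 8 regions of EcR spanned 39.4 kb of chromosome arm 2R, from 2007955 to 2047400. Distances and positions together show which TSS each region was measured from, and those of EcR refer to 3 starts, at 2019345, 2019427 and 2044633. The last of these had 5 regions, including that at 2044555 to 2044695, which covers it. The first region stood apart, 11264 bp downstream of the TSS at 2019345, and the longest stretch of the locus without a region, 22551 bp, lay before those 5.

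Along the locus, the CRTC scores of EcR were 8.61, 6.75, 10.4, 6.60, 7.95, 5.91, 9.25 and 1.83. Their CREB sites scored 8.44, 8.22, 9.03, 7.26, 7.26, 8.72, 7.004 and 1.64 in the same order, and the equal scores belong to a single CREB-binding site shared by neighbouring regions. The last region, 2667 bp upstream of a TSS, was far below the others and ranked 5763rd of the 5990 CRTC-binding sites. No region of EcR reached the highest 10% of either list.

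The partner gene usp encodes the fly retinoid X receptor. It had 2 regions on chromosome X, at 1935730 to 1935769 and 1936232 to 1936292, listed 385 bp upstream and 51 bp downstream of a TSS. Their CRTC scores were 2.43 and 2.60, and those of their CREB sites were 2.01 and 1.797. By its best CRTC site, usp ranked 2469th of 2833 genes, the lowest of the 9 bound genes, and EcR ranked 505th. The genes of the receptor's subunits thus differed in both the number and the score of their regions.

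Eip74EF, an ETS-domain transcription factor and not a nuclear receptor, had the strongest set of regions. Its 10 regions spanned 47.2 kb of 3L, from 17565328 to 17612568. In order of position, their CRTC scores were 6.54, 16.8, 1.98, 14.7, 14.9, 3.80, 10.5, 16.3, 6.67 and 19.2. The CREB scores, in the same order, were 4.97, 14.5, 2.20, 13.2, 17.7, 3.72, 10.2, 19.4, 6.62 and 20.9. The median CRTC score was 12.6, the highest median among the 9 genes, and 5 regions were in the highest 10% of each list.

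The strongest region of Eip74EF, at 17612416 to 17612568, covers the listed TSS and ranked 97th for CRTC and 123rd for CREB. The other high regions lay farther off. The region 7118 bp downstream of that TSS (CRTC score 16.3) and the region 14092 bp upstream of another (14.9) ranked 17th and 25th for CRTC among the 421 regions beyond 5 kb. The weakest, at 1.98, lay only 65 bp from a TSS. High and low scores were thus found both near a TSS and far from it.

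Eip75B encodes a haem-binding nuclear receptor that represses transcription. Its 15 regions spanned 110 kb of 3L, from 17949716 to 18059684, and formed 2 clusters separated by 88532 bp. The first cluster held 11 regions, measured from starts at 17954913 and 17964538. The second held 4, measured from starts at 18054553 and 18057795. A further 6 regions between the outermost ones were assigned to other genes, 4 of them to CG32192.

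In the first cluster of Eip75B, CRTC scores were 3.66, 2.97, 2.38, 10.4, 5.72, 4.23, 2.96, 3.93, 8.22, 8.70 and 3.49 in order of position. In the second they were 12.1, 10.01, 6.10 and 2.37. The highest, 12.1, was at 18054872 to 18055028, 319 bp upstream of a TSS, with a CREB score of 14.9. At 17965632 to 17965740, 1093 bp upstream of a TSS, the CREB score was also high, 14.4, where the CRTC score was 8.70. The median over the gene was 4.23 for CRTC, so that Eip75B had the most regions of the 10 genes but many weak ones.

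Eip78C encodes a nuclear receptor related to that of Eip75B. Its 2 regions lay 136 bp apart at a single TSS on 3L, at 21233118 to 21233270 and 21233406 to 21233498, and the second covers it. Their CRTC scores were 9.18 and 6.01, and their CREB scores were 8.44 and 7.14. Unlike those of Eip75B and Eip74EF, the regions of this gene were confined to the TSS.

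The Hr46 locus, listed as Hr3 in the RefSeq table of Release 6, encodes an orphan receptor that activates ftz-f1. Its 6 regions spanned 27.6 kb of 2R, from 6098416 to 6125975, and were measured from 3 starts. In order of position, CRTC scores were 1.67, 5.51, 5.42, 8.18, 4.47 and 8.402, and CREB scores were 1.71, 6.29, 6.43, 7.89, 3.82 and 9.86. The first region, 388 bp downstream of a TSS, ranked 5880th of the 5990 CRTC-binding sites, the lowest rank among the 57 regions. The highest scores for both proteins were at 6125838 to 6125975, 985 bp upstream of a TSS.

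ftz-f1, a nuclear receptor that makes tissues competent to respond to ecdysone, had the highest single score of the 10 genes. Its 10 regions spanned 44.3 kb of 3L, from 18750286 to 18794540. In order of position, CRTC scores were 7.29, 5.92, 2.72, 4.97, 20.2, 5.66, 4.88, 7.46, 41.7 and 7.22. The CREB score of the region at 41.7 was 43.9, that of the region at 20.2 was 9.67, and those of the others ran from 2.46 to 8.41. All but 2 regions thus had CRTC scores between 2.72 and 7.46, and the 2 exceptions stood far above.

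The region with the score of 41.7 lay at 18785968 to 18786124, 8284 bp downstream of the TSS at 18794408. It ranked 5th of the 5990 CRTC-binding sites and 7th of the 7243 CREB-binding sites, and the midpoints of its sites were 8 bp apart. Among the 421 regions beyond 5 kb from a TSS, it ranked 2nd for CRTC and 1st for CREB. The region covering the TSS itself, at 18794392 to 18794540, had a CRTC score of only 7.22. By its best site, ftz-f1 ranked 5th of 2833 genes for CRTC and 7th for CREB, the highest rank of the 10 genes for each protein.

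The second exception, at 18758870 to 18759042, lay 26 bp upstream of another TSS of ftz-f1. It ranked 84th for CRTC with a score of 20.2 but only 927th for CREB with a score of 9.67. Of the 84 regions with at least its CRTC score, 6, itself included, had a CREB score no higher than 9.67. CRTC rank was therefore far ahead of CREB rank here, in contrast to the region at 18785968 to 18786124.

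**Figure D4:**
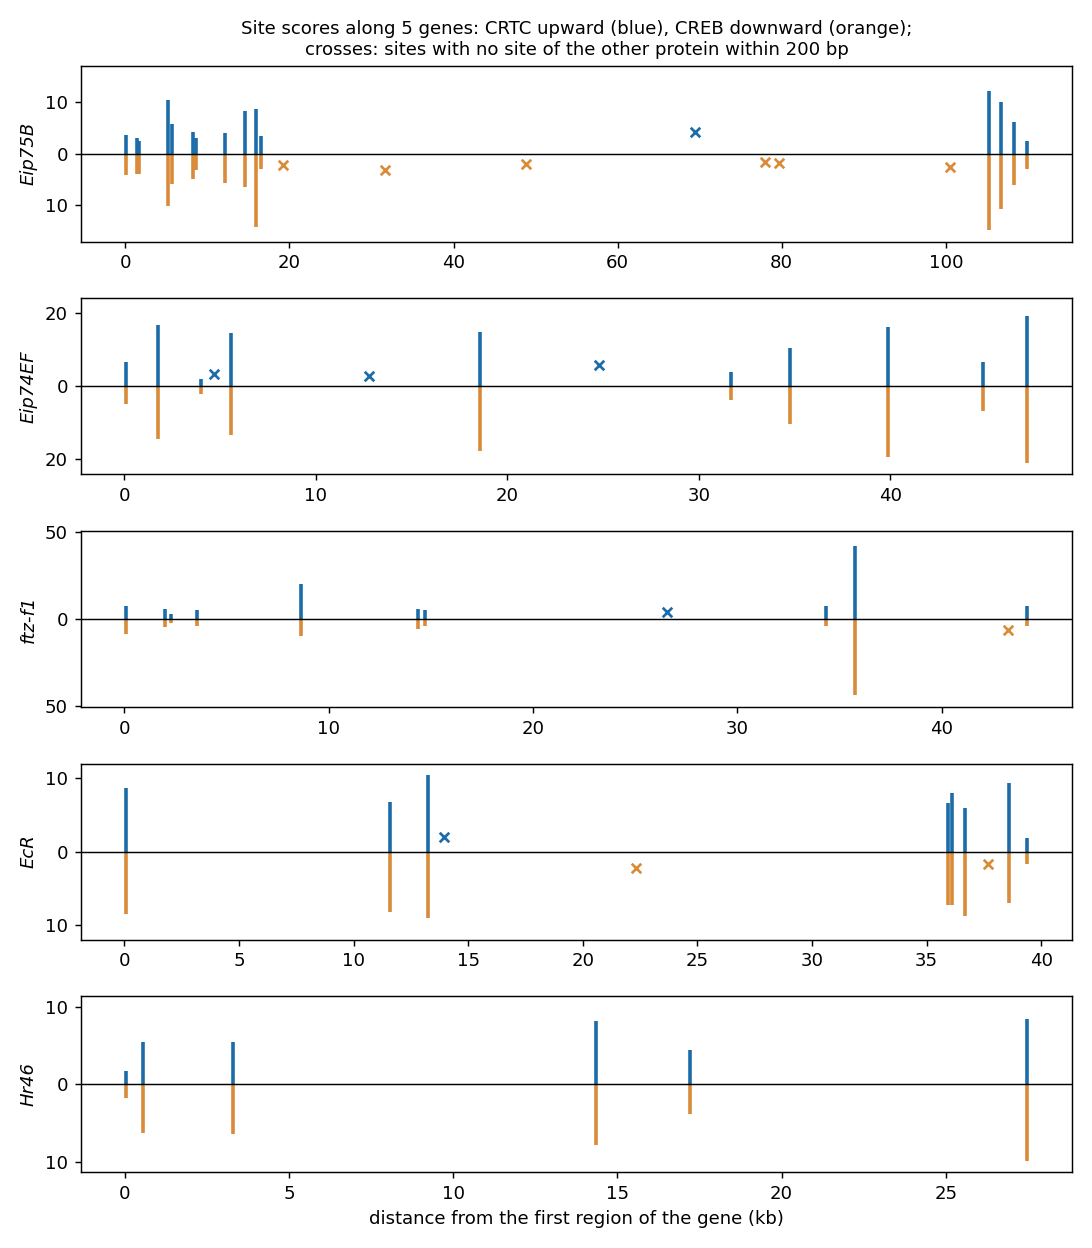
Site scores (vertical axes, a scale per gene) of CRTC upward and CREB downward against the distance in kb from the first region of each gene (horizontal axes, in order of position), for the 5 genes with at least 6 regions. Crosses are sites whose nearest site of the other protein was more than 200 bp away. Eip75B shows 2 clusters with crosses between them, and ftz-f1 a region at 41.7 and 43.9.

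Hr39 encodes a receptor related to that of ftz-f1, and svp the fly counterpart of the vertebrate COUP transcription factors. At Hr39 the region covering the TSS, at 21237176 to 21237264 on 2L, had scores of 4.04 for CRTC and 3.84 for CREB. The region 512 bp downstream of the TSS, at 21237762 to 21237918, had scores of 6.95 and 7.08. At svp on 3R the region 1922 bp upstream of the TSS had scores of 2.39 and 3.43, and that 103 bp upstream had 4.29 and 5.66. Each gene thus had its regions measured from a single TSS, and none of them was in the highest 10% of either list.

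ERR, the fly oestrogen-related receptor, had no region. Its nearest protein-coding neighbours in the RefSeq table, mthl7 and Uxs on one side and Atg18a and MED24 on the other, had none either. Most genes had none, since only 19.4% of RefSeq protein-coding genes had a region. A site of CREB or CRTC alone near ERR was not looked for, since its position in dm3 was not used here.

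Within the loci, taken from the first to the last region of each gene, most sites had a partner. Of 69 CRTC-binding sites, 6 (8.70%) had no CREB-binding site within 200 bp, against 16.6% of the whole CRTC list. Of 72 CREB-binding sites, 9 (12.5%) had no CRTC-binding site within 200 bp, against 30.1% of the whole CREB list. Each locus begins and ends with a region, which has a partner by definition, and the genes were chosen by their number of regions. At Eip78C, usp, Hr39 and svp the locus held only 2 sites of each protein. The Eip75B locus includes sites of regions assigned to other genes. The authors' limit on read density was lower for CREB peaks than for CRTC peaks. These shares are therefore descriptions only.

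The sites without a partner were found in 4 loci, where they were placed by position alone and not assigned to a gene. The Eip75B locus had 6 CREB-binding sites, with scores from 1.59 to 3.27, and 1 CRTC-binding site with a score of 4.14. All lay between the 2 clusters, from 2514 to 35636 bp from the nearest region of Eip75B. This locus also holds the 6 regions assigned to other genes. Eip74EF had 3 CRTC-binding sites and no such CREB-binding site, and the highest of the 3 scored 5.69, at 17590088 to 17590172. EcR had 1 for CRTC (1.96) and 2 for CREB (2.23 and 1.63). At ftz-f1, the CRTC-binding site scored 4.08, and the CREB-binding site, at 18793466 to 18793598, scored 6.55 and lay 794 bp from the region covering the TSS.

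Another region of the same gene lay within 1000 bp of 25 of the 57 regions (43.9%), against 42.9% of all regions. The backgrounds are unlike, since 1719 genes of the whole table had a single region, which can have no such neighbour. None of the bound genes described here was among them. Without those genes, the share of all regions would be above 42.9%. The near match is therefore not read as equal clustering at short range. The spacing differed between genes. The gap between neighbouring regions was at least 1482 bp throughout Eip74EF, and as small as 47 bp in EcR and 124 bp in Eip75B.

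The genes most like Eip75B, by having at least 15 regions, were Mnt, a partner of Max that opposes Myc, with 17 and tlk, a protein kinase gene, with 16. The regions of Mnt spanned 23.5 kb and those of tlk 60.7 kb, against 110 kb for those of Eip75B. Their median CRTC scores, 7.97 and 9.68, exceeded the 4.23 of Eip75B.

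Of 12 further nuclear receptor genes, 8 had a region, 24 in all. The share of RefSeq protein-coding genes with a region was 19.4%. Hr4 had 8 regions, with a CRTC score of up to 19.1, Hnf4 had 5 (up to 15.3) and Hr38, the fly relative of the NR4A receptors, had 4 (up to 8.49). Hr51 and knrl had 2 each, and Hr96, kni and eg had 1 each. Hr78, Hr83, tll and dsf had none.

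Other genes of the ecdysone pathway were counted by role, beside the same share of 19.4%, with no test of a difference between roles. With so few genes in each list, no count in any list is read against that share. Of 7 cofactors and repressors, 5 had regions: tai, a coactivator of EcR, had 7 (CRTC score up to 16.5), Smr, a corepressor of EcR, and crol and Alh had 4 each, and bon had 2. Of 14 effectors, 9 had regions, most often Blimp-1 with 8, Eip93F with 6 and Kr-h1 with 6. Of 9 genes of hormone synthesis and breakdown 1 had a region. This was sad, a hydroxylase of ecdysone synthesis, with its region listed 7751 bp from its TSS with a CRTC score of 3.50.

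Both juvenile hormone receptor genes were bound. Met had 1 region, and its paralogue gce had 5, with CRTC scores of up to 24.1. DopEcR, a membrane receptor for dopamine and ecdysteroids, had 1 region that covers its TSS, with scores of 11.3 for CRTC and 12.9 for CREB. Oatp74D, the ecdysone importer, had 3, with a CRTC score of up to 9.68. These lists, too, were written with earlier results of these data known.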

How the data were processed

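MiSeq reads of 12 ChIP libraries and 1 input library were mapped by the authors to dm3 with CLC Genomics Workbench. In Strand NGS, the PICS and ERD callers were run against input DNA, peaks were the overlap of both, and those found in at least 2 of 3 replicates were kept. The ERD peaks were also filtered by enrichment and by read density, and the density limit was lower for CREB than for CRTC. The CREB and CRTC lists were thus not called at the same limit. The authors' deposited lists give a score and a false discovery rate (a q-value) for each site, and which caller gave the score is not stated. The authors' deposited table assigns each CREB/CRTC region to a gene and gives other values, the distances to the TSS, in bp. It also holds 4 columns of the authors' own comparison of spaced and naive flies (fold changes and adjusted p-values over 1 kb windows), which were not used.

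All 4995 regions were found in the CRTC list by position. For each, the nearest CREB-binding site was taken, with ties going to the site sharing most bases. Widths and shared bases are differences of deposited positions. The TSS a region refers to was derived from its position and signed distance, in the orientation giving fewer starts, and starts 1 bp apart were merged. For usp both orientations gave 2 starts. Of 2833 symbols, 2303 are symbols and 476 single-gene synonyms in the RefSeq table of Release 6. That table was used for names, neighbours and the share of protein-coding genes with a region, 2712 of 13962 (19.4%).

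Figures were drawn in Matplotlib 3.10.9, tables were handled in pandas 2.3.3 under Python 3.11.15, and correlations were taken in SciPy 1.17.1 on arrays of NumPy 2.4.6. The search for partners was tested on simulated data. The simulated partners began at or after a site's end, at most 200 bp away, so shared bases and ties were not tested. The genes, lists and limits were chosen with earlier results of these data known. The genes named are the 10 members, the genes with at least 10 regions, and the 2 lists of other receptors and of pathway genes. Genes inside a locus or next to ERR were named after their values were seen. Alternatives for the score, the false discovery rate, the overlap, the TSS limit and the partner limit were tried. The planned search for CRE motifs and zinc-finger patterns was not made, because no sequence was used here.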

Additional observations from a re-analysis of the deposited data

How the results depend on the processing

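The number of regions at these genes was 57, and 41 with a CRTC score in the upper 50% of its list, 54 with a shared base, 51 with at least 50% of the CRTC site covered and 51 as distinct 1 kb windows. It moved most, to 18, when both false discovery rates had to be under 0.001. These rates did not fall steadily with the score: a CREB-binding site of EcR with a score of 8.44 had 0.000868, and that of ftz-f1 with 9.67 had 0.00109. The share within 500 bp of a TSS, 36.8%, was 28.1% at 200 bp and 42.1% at 1000 bp. With only the region nearest to a TSS for each gene, it was 100%, since each bound gene had such a region. The median CRTC score, 6.10, was 5.50 when each gene counted once, and the median CREB score did not change with the highest-scoring CREB site within 200 bp. Sites without a partner, 6 for CRTC and 9 for CREB, were the same in number at 500 bp and were 9 and 10 when a shared base was required. No paired analysis was possible because the lists hold no values per library. The depth behind each score is unknown.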
